A study of Mus musculus with 13 samples.

Results

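The 10 genes described here, Zbtb20, Foxp1, Zfhx3, Sox5, Arid1b, Rad51b, Magi1, Lpp, Nedd4l and Prkce, are long genes that carry many glucocorticoid receptor (GR) binding sites in mouse liver. They are 10 of 21887 protein-coding genes in the RefSeq annotation of GRCm38.p6, the assembly that mm10 names, and their bodies span 333.3 to 953.9 kb and 5.93 Mb in all. A peak belonged to a gene when its centre lay inside the gene body. The genes were chosen by their numbers of GR peaks in these same lists, so those numbers are a description and no test was made on them. Together they held 277 of 40853 GR peaks in control liver after dexamethasone, and 336 distinct sites over the 4 GR lists.

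The study mapped GR and the corepressor NCOR1 by ChIP-seq in livers of male mice, with 12 ChIP libraries and 1 input library. GR was profiled in dKO liver after dexamethasone, in dKO liver after vehicle, in control liver after dexamethasone and in control liver after vehicle, each with 2 libraries pooled into 1 list. NCOR1 was profiled in dKO vehicle liver (1 library), control dexamethasone liver (2 libraries) and control vehicle liver (1 library). The dKO mice carry a knockout that includes NCOR1 and have the genotype label CRE, while controls carry the label GFP; what delivers or drives Cre, and the age of the animals, are not given in the sources used here. Dexamethasone, a synthetic glucocorticoid, was injected into the peritoneum at 1 mg/kg at zeitgeber time 8, with saline as the vehicle, and livers were frozen 2 h later at zeitgeber time 10. A mixture of GR antibodies was used. Size selection was applied to NCOR1 and input DNA and not to GR DNA. Replicates were pooled before peak calling, so no value below has a spread between animals, peaks of 1 gene are not replicates, and intervals cover counting error only. The GR lists held 28378 peaks in dKO dexamethasone, 23362 in dKO vehicle, 40853 in control dexamethasone and 30011 in control vehicle liver, and the NCOR1 antibody gave 17282 in dKO vehicle liver, 37700 in control dexamethasone and 39458 in control vehicle liver. Whole liver was used, so binding in fewer cells and less binding per cell cannot be told apart.

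GR is a nuclear receptor that enters the nucleus when it binds a glucocorticoid, attaches to DNA as a dimer or through other factors, and mostly occupies enhancers far from gene starts. NCOR1 is a scaffold protein that carries the histone deacetylase HDAC3 to nuclear receptors and is best known for repression. Long genes can hold many enhancers inside their introns, and an intronic site need not act on the gene that holds it.

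RefSeq lists 13 promoter windows for 8 of the genes, all but Nedd4l and Prkce, each reaching from 250 bases before to 50 bases after a transcription start on GRCm38.p6. Of these, 3 windows overlapped a GR peak of any list, and they are printed because they are the listed member windows at which GR was called. The first is Zbtb20 (chr16:43247034-43247333, plus strand), the next is the upstream Lpp window (chr16:24393100-24393399, plus strand) and the last is Zfhx3 (chr8:108714394-108714693, plus strand). A listed start can lie inside the body: the GR sites at the Zbtb20 and Zfhx3 windows lay 371.6 and 435.4 kb from the body start. GR sites near the body starts of Zbtb20 (0.405 kb away), Foxp1 (0.009 kb), Magi1 (0.176 kb) and Sox5 (0.098 kb) lay outside the listed windows. Capitals mark the half-site AGAACA or its reverse complement TGTTCT.
Zbtb20: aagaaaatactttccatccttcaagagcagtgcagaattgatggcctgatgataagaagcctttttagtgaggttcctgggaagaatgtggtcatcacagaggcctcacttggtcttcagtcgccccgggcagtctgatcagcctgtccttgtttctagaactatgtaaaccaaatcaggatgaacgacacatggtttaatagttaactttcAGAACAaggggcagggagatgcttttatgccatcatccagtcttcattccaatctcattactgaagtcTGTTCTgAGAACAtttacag
Lpp: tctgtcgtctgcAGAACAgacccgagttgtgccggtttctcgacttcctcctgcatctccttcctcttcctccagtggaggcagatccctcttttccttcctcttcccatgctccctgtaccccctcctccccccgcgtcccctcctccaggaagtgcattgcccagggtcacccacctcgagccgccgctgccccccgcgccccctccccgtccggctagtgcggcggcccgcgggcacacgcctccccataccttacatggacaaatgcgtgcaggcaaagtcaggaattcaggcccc
Zfhx3: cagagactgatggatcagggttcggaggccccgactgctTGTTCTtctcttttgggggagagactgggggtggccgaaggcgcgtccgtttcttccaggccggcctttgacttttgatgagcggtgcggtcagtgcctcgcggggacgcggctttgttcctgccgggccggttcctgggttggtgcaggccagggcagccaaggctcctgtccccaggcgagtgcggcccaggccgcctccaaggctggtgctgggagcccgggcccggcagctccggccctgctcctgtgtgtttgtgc
Across all 32851 RefSeq promoter windows, 13.9% overlapped a GR peak of any list. The searches ran on both strands for the palindrome of the GR response element (AGAACA and TGTTCT with 3 bases between them), for its shorter core ACANNNTGT, and for the half-site AGAACA, which also lies within the palindrome. Of all windows, 0.00913% held the palindrome, 6.85% the core and 19.0% the half-site. None of the 13 member windows held the palindrome or the core, and the half-site was found 3 times in the Zbtb20 window, once in each of the other two printed windows and once in the Sox5 window.

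At the listed Zbtb20 start, inside the gene body, a GR peak was called in both dexamethasone lists and in neither vehicle list. Its normalized tag counts were 8.78 in dKO liver and 6.99 in control liver. The normalized tag count is the authors' signal of a peak, in tags per 10 M tags (M for 1000000) of the pooled library. NCOR1 was called at the same window in control liver with 8.40 after dexamethasone and 7.88 after vehicle, and not in dKO liver. The half-sites at bases 213 to 218 and 281 to 286 of the window, counted from its 5′ end, lay under both GR peaks, and the one at bases 288 to 293 lay under the dKO peak. The upstream Lpp window overlapped a GR peak in dKO dexamethasone liver only (12.4), and the NCOR1 antibody gave a peak of 13.2 there in dKO vehicle liver. The Zfhx3 window overlapped a GR peak in control vehicle liver only (6.37). The half-sites of Lpp and Zfhx3 lay outside the GR peaks.

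All 10 genes held more GR peaks per 100 kb than the median of the 458 other protein-coding genes of at least 333.3 kb, in each of the 4 GR lists. After dexamethasone the genes held 3.0 GR peaks per 100 kb in dKO liver (178 peaks, 95% Poisson interval 2.58 to 3.48) and 4.67 in control liver (277 peaks, 4.14 to 5.26). After vehicle they held 1.89 in dKO liver (112 peaks, 1.56 to 2.27) and 2.82 in control liver (167 peaks, 2.41 to 3.28). The median of the other long genes was 0.555 in dKO dexamethasone, 0.490 in dKO vehicle, 0.764 in control dexamethasone and 0.563 in control vehicle. In control dexamethasone liver 8.3% of the 458 other long genes held no GR peak. Counting only peaks of at least 8-fold over input gave the 10 genes 2.02 per 100 kb in dKO dexamethasone, 1.05 in dKO vehicle, 2.92 in control dexamethasone and 1.69 in control vehicle liver.

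Arid1b had the highest density in control dexamethasone liver, 8.49 peaks per 100 kb from 30 peaks, and ranked 1 among the 468 long genes. Zfhx3 had the lowest, 2.64 from 18 peaks, and ranked 67. Zbtb20 held the most peaks, 39, but over 758.7 kb, which gave 5.14 per 100 kb. The genes are not simply the leaders of the count: Arhgap26 held 46 control dexamethasone peaks, Rora 34 and Nfia 31, whereas Nedd4l held 16 and ranked 56 by count. The difference between dKO and control density after dexamethasone depended on list length: when every GR list was limited to the number of peaks of the shortest one by tag count, the 10 genes held 2.70 per 100 kb in dKO and 2.67 in control liver.

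**Figure D1:**
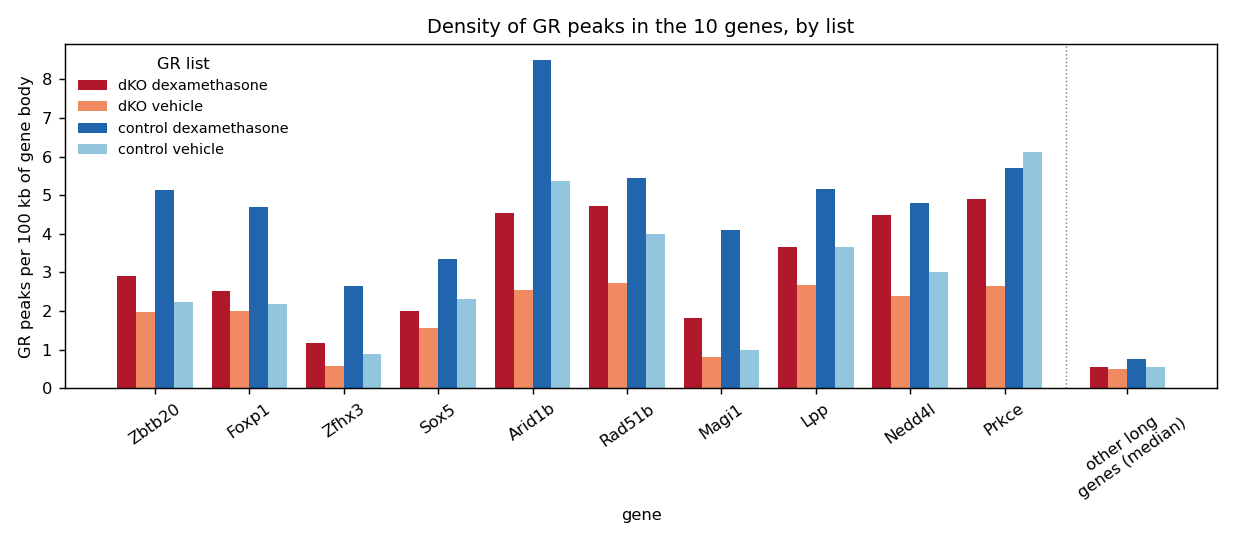
GR peaks per 100 kb of gene body for each gene (bars, 1 pooled list each) in dKO dexamethasone, dKO vehicle, control dexamethasone and control vehicle liver, with the median of the 458 other long genes at the right. Arid1b reached 8.49 in control dexamethasone liver and Zfhx3 2.64, against a median of 0.764 for the other long genes.

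The DNA-binding factors held sites of very unequal strength. Zbtb20 is a zinc finger repressor that silences alpha-fetoprotein in the postnatal liver. Its peaks numbered 22 in dKO dexamethasone, 15 in dKO vehicle, 39 in control dexamethasone and 17 in control vehicle liver. Its strongest control dexamethasone site (chr16:42998987-42999187) had tag counts of 61.0 in dKO dexamethasone, 17.2 in dKO vehicle, 147.5 in control dexamethasone and 55.0 in control vehicle liver. The site was lower in dKO than in control liver under both treatments, with log2 ratios of -1.27 after dexamethasone and -1.68 after vehicle. NCOR1 was weak there, with 10.4 after dexamethasone and 6.19 after vehicle in control liver and no dKO peak.

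Foxp1, a forkhead repressor, held the strongest site of the group (chr6:99175523-99175723). It had tag counts of 192.4 in dKO dexamethasone, 113.5 in dKO vehicle, 270.2 in control dexamethasone and 140.7 in control vehicle liver, and ranked 39 in the control dexamethasone list. NCOR1 was called on the same site with 103.3 in control dexamethasone and 60.2 in control vehicle liver, and the NCOR1 antibody gave 21.2 in dKO vehicle liver. The site was therefore the strongest Foxp1 peak for both proteins in control liver and for the NCOR1 antibody in dKO liver. Most other Foxp1 peaks were weak, and the median of its 28 control dexamethasone peaks was 10.7.

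Zfhx3, a zinc finger homeobox factor, had a strongest control dexamethasone site of 15.7, with 13.6 in dKO dexamethasone liver and no peak in either vehicle list, and 0 of its 18 control dexamethasone peaks lay in the top 10% of that list. Another of its sites reached 23.1 in dKO vehicle and 27.5 in control vehicle liver, within the top 10% of both vehicle lists. Sox5, a member of the SoxD group known from cartilage formation, had 1 prominent site (chr6:144754123-144754323) with 103.3 in dKO dexamethasone, 60.2 in dKO vehicle, 139.9 in control dexamethasone and 71.7 in control vehicle liver. That site was also 1 of only 2 NCOR1-antibody peaks of Sox5 in dKO liver.

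Arid1b, a subunit of the SWI/SNF chromatin remodelling complex, had the highest log2 ratio of dexamethasone over vehicle among the genes' strongest sites. At chr17:5106033-5106233 the tag count was 66.6 in dKO dexamethasone and 13 in dKO vehicle liver, against 150.5 in control dexamethasone and 24.6 in control vehicle liver. The log2 ratio of dexamethasone over vehicle was 2.36 in dKO liver and 2.61 in control liver. The site sat in the densest cluster of the group, with 10 control dexamethasone peaks within 50 kb, 33.3% of the gene's peaks. In that cluster 5 sites carried NCOR1 in control dexamethasone liver, the highest with 61.1 at a site of 27.6 GR tags.

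Rad51b, which acts in DNA repair by homologous recombination, held a strong site that hardly differed by drug. At chr12:79675966-79676166 the tag count was 43.1 in dKO dexamethasone, 38.7 in dKO vehicle, 85.8 in control dexamethasone and 77.2 in control vehicle liver. Its log2 ratio of dexamethasone over vehicle was 0.16 in dKO and 0.15 in control liver, while the log2 ratio of dKO over control was -0.99 after dexamethasone and -1.0 after vehicle. Both dKO values lay below both control values, and the treatments lay close together within each genotype. Rad51b had the most GR peaks of the group in dKO dexamethasone liver, 26, against 30 in control dexamethasone liver.

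The adhesion scaffolds differed from each other. Magi1, a scaffold of cell junctions, had few vehicle peaks: 11 in dKO dexamethasone and 5 in dKO vehicle, against 25 in control dexamethasone and 6 in control vehicle liver. None of its 28 sites had a peak in all 4 GR lists, and its strongest site reached 17.9 in dKO dexamethasone and 29.8 in control dexamethasone liver, with no vehicle peak. Lpp, a LIM-domain protein of focal adhesions, had 22 dKO dexamethasone and 16 dKO vehicle peaks, against 31 control dexamethasone and 22 control vehicle peaks. Its strongest site (chr16:24782028-24782228) had 77.4 in dKO dexamethasone, 19.1 in dKO vehicle, 131.2 in control dexamethasone and 44.2 in control vehicle liver. Lpp also hosts the microRNA miR-28a in its body, and a site 374 bp, edge to edge, from the mature 5p sequence had 12.8 in dKO dexamethasone, 8.35 in dKO vehicle and 17.5 in control dexamethasone liver, with no control vehicle peak.

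Of the signalling enzymes, Nedd4l encodes a ubiquitin ligase that marks the epithelial sodium channel for removal in kidney. Its strongest control dexamethasone site (chr18:65097130-65097330) had 47.5 in control dexamethasone and 16.2 in control vehicle liver and no overlapping dKO peak; the centre of the nearest dKO dexamethasone peak lay 489 bp from its centre. Its strongest NCOR1 peak in control dexamethasone liver lay nearby, with 57.7 in control dexamethasone and 68.6 in control vehicle liver. There the NCOR1 antibody gave 9.45 in dKO vehicle liver. Prkce, a diacylglycerol-activated protein kinase C, held 24 dKO dexamethasone and 13 dKO vehicle peaks, against 28 control dexamethasone and 30 control vehicle peaks. It was the gene of the group with no more control peaks after dexamethasone than after vehicle, although its strongest site (chr17:86503579-86503779) had 123.3 in dKO dexamethasone, 62.8 in dKO vehicle, 225.3 in control dexamethasone and 154.7 in control vehicle liver.

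Set side by side, 7 of the 10 strongest sites had a peak in all 4 GR lists. Of GR sites of any strength genome-wide, merged over the lists, 32.3% did, and stronger peaks were more often shared between lists. The dexamethasone tag count was the higher one at 7 of 7 comparable sites in dKO liver and at 8 of 8 in control liver. Over all matched sites of the lists it was higher at 8414 of 18330 in dKO and at 13104 of 24576 in control liver. The dKO tag count was the lower one at 9 of 9 sites after dexamethasone and at 7 of 7 after vehicle. Over all matched sites of the lists it was lower at 20572 of 24720 after dexamethasone and at 13298 of 19488 after vehicle. Lower dKO tag counts were therefore not particular to the genes' strongest sites. Those strongest sites were picked for a high control dexamethasone value, which favours that list wherever it is compared.

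**Figure D2:**
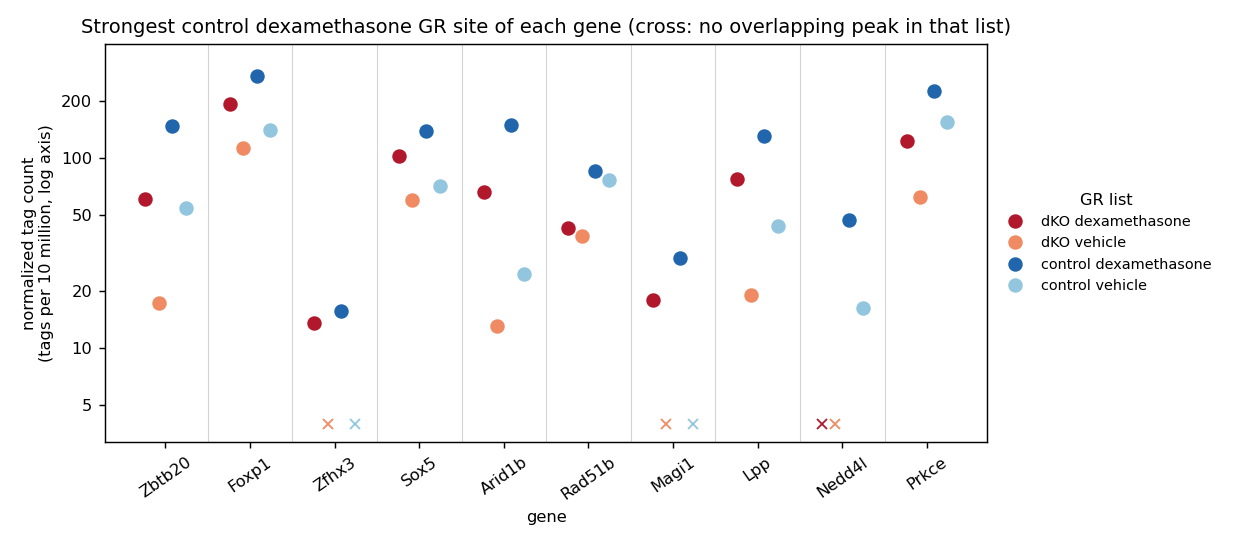
Normalized tag count (tags per 10 M, log axis) at the strongest control dexamethasone GR site of each gene in the 4 GR lists; crosses mark lists without an overlapping peak. Arid1b reached 150.5 in control dexamethasone and 24.6 in control vehicle liver, whereas Rad51b had 85.8 in control dexamethasone and 77.2 in control vehicle liver.

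Dexamethasone-only peaks, those of a dexamethasone list that overlapped no peak of the vehicle list of the same genotype, made up 48.9% of the genes' peaks in dKO liver (87 of 178, 41.3 to 56.5%) and 53.4% in control liver (148 of 277, Clopper-Pearson interval 47.4 to 59.4%). The share over the whole list was 35.4% in dKO liver and 39.8% in control liver. Among peaks in the other long genes it was 33.4% in dKO and 40.0% in control liver. The genes were named for many GR peaks, which can favour a high share, and both genotypes were compared with a vehicle list that holds fewer peaks. Vehicle-only peaks made up 18.8% of the genes' dKO vehicle peaks (21 of 112; whole list 21.5%) and 22.2% of their control vehicle peaks (37 of 167; whole list 18.1%).

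The control share was spread widely, from 34.4% in Sox5 (11 of 32) to 80.0% in Magi1 (20 of 25) and 83.3% in Zfhx3 (15 of 18). Zbtb20 had 61.5% (24 of 39) and Foxp1 67.9% (19 of 28), while Prkce had 35.7% (10 of 28). In 8 of the 10 genes the share lay above the whole-list value. The genes were named for many GR peaks, so this is a description and not a test. Dexamethasone-only peaks were weaker: their median tag count was 9.32 in control liver, against 18.5 at the genes' shared peaks. Among peaks at or above the median tag count of the control dexamethasone list the genes' share was 36.6% (53 of 145), against 24.2% of all peaks, and with lists of equal length it was 40.0%, against 29.5%.

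Sites called under both treatments allow the tag counts to be set side by side. These counts are scaled to all tags of a pooled list, inside and outside peaks. The share of tags inside peaks differed between the GR lists, from 3.4% in dKO vehicle to 7.23% in control dexamethasone liver. How far this difference enters the ratios was not tested. The median log2 ratio of dexamethasone over vehicle was 0.34 over 91 dKO sites of the genes, with 62 higher after dexamethasone, and -0.11 over the whole dKO list. In control liver it was 0.45 over 129 sites, with 93 higher after dexamethasone, and 0.07 over the whole list. Magi1 had the highest control median, 1.07 over 5 sites, followed by Nedd4l with 0.84 over 7 and Zbtb20 with 0.80 over 15. Sox5 was the gene with a median below 0 in control liver, -0.11 over 21 sites, and in dKO liver its median was -0.70 over 13 sites.

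**Figure D3:**
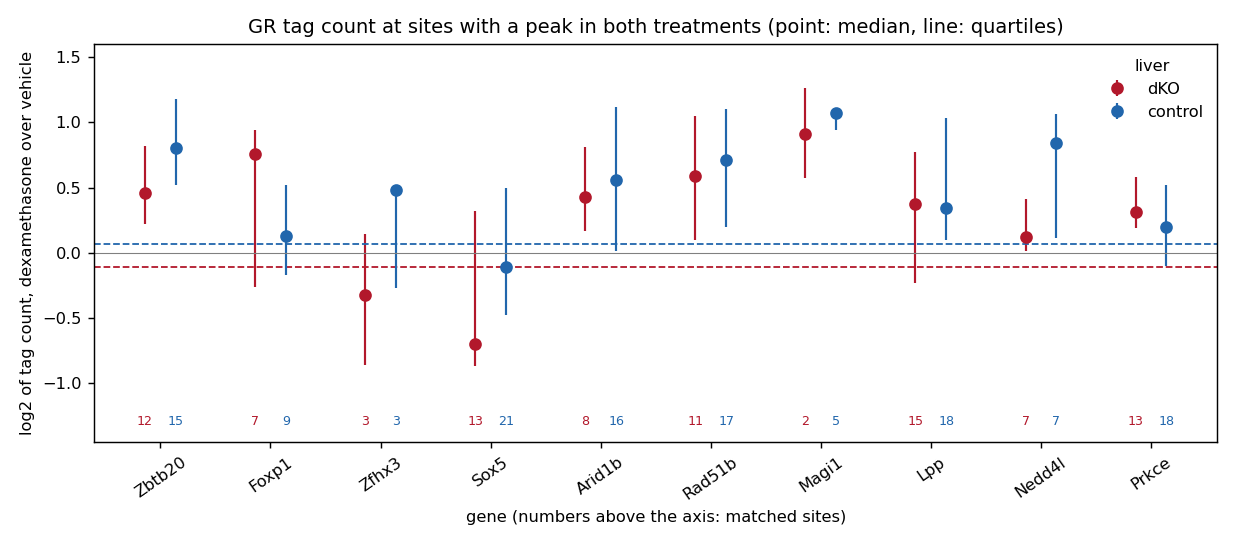
Median (point) and quartiles (line) of the log2 ratio of tag count, dexamethasone over vehicle, at sites called under both treatments, for dKO and control liver. Dashed lines are the whole-list medians (-0.11 in dKO, 0.07 in control); Magi1 lies at 1.07 and Sox5 at -0.11 in control liver.

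In dKO liver the genes held fewer called GR peaks than in control liver under both treatments. After dexamethasone, 45.1% of the control peaks had no dKO peak (125 of 277, 39.2 to 51.2%, whole list 39.5%, other long genes 37.7%). After vehicle the share was 46.1% (77 of 167, 38.4 to 54.0%; whole list 35.1%, other long genes 29.8%). In the opposite direction 14.6% of dKO dexamethasone peaks (26 of 178; whole list 12.9%) and 20.5% of dKO vehicle peaks (23 of 112; whole list 16.6%) had no control peak. The control peaks without a dKO dexamethasone peak were weak, with a median tag count of 8.16 against 18.6 at the rest, and among peaks at or above the list median the share was 20.7%, against 21.1% of all peaks. With lists of equal length it was 29.3%, against 26.6% of all peaks. After vehicle, peaks at or above the list median gave 20.0% (15 of 75), against 14.1% of all peaks. Zbtb20 had no dKO dexamethasone peak outside its control peaks (0 of 22, upper limit 15.4%).

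By gene, Zfhx3 lacked most after dexamethasone, 66.7% of its control peaks (12 of 18), followed by Magi1 with 64.0% (16 of 25). Nedd4l (31.2%, 5 of 16), Prkce (32.1%, 9 of 28) and Rad51b (33.3%, 10 of 30) lacked least. At sites called in both genotypes the median log2 ratio of dKO over control was -0.53 after dexamethasone over 152 sites, 131 of them lower in dKO, against -0.42 over the whole list. Rad51b had the lowest median, -0.84 over 20 sites, although it lacked few sites. Foxp1 had the median nearest to 0, -0.27 over 13 sites, although it lacked 53.6% of its control peaks (15 of 28). After vehicle the median over the genes was -0.28, against -0.19 over the whole list. The part of the unequal shares of tags inside peaks in these genotype ratios was not tested either. The comparisons by treatment and by genotype share lists, so their values are given side by side only.

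Merged over the 4 GR lists, 74 of the 336 sites (22.0%) had a peak in all lists, against 32.3% of 50504 merged sites genome-wide. For the genes only peaks centred inside a body were merged, so a site at a body edge can lack a list here. The site 0.009 kb from the Foxp1 body start (32.2) counts as control vehicle alone. It also overlapped peaks of the control dexamethasone and dKO vehicle lists. A further 90 (26.8%) were called in control dexamethasone liver alone, against 20.1% genome-wide, and 41 (12.2%) in both dexamethasone lists and no vehicle list, against 8.45%. Lpp had the most sites in all 4 lists, 13 of 36, and Sox5 12 of 35, whereas Zfhx3 had 2 of 22.

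**Figure D4:**
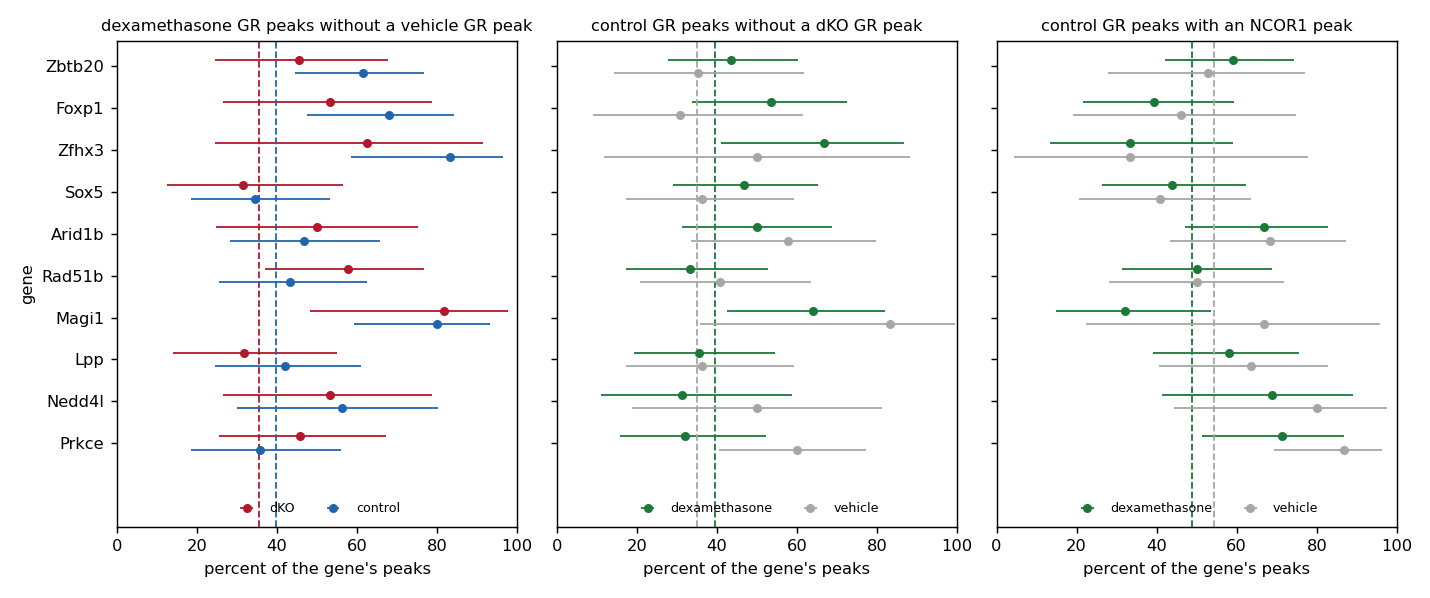
Percent of each gene's GR peaks (point, with 95% Clopper-Pearson interval) that lacked a vehicle peak (left), lacked a dKO peak (middle) or overlapped an NCOR1 peak of the same control group (right). Dashed lines are the whole-list shares; Zfhx3 and Magi1 lie highest on the left, with 83.3% and 80.0% in control liver, and Prkce highest on the right.

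NCOR1 was dense in the same gene bodies. The genes held 1.54 NCOR1-antibody peaks per 100 kb in dKO vehicle liver (91 peaks), 3.69 in control dexamethasone liver (219 peaks) and 4.03 in control vehicle liver (239 peaks), while the median of the other long genes was 0 in dKO vehicle, 0.436 in control dexamethasone and 0.426 in control vehicle liver. All 10 genes lay above the upper quartile of the other long genes in both control lists. These counts were not used to name the genes, but NCOR1 peaks often lie at GR peaks, so they are not independent of it. Prkce was densest in control vehicle liver with 8.37 per 100 kb (41 peaks), and Sox5 sparsest with 1.68 (16 peaks).

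Of the genes' control GR peaks, 52.7% overlapped an NCOR1 peak after dexamethasone (146 of 277, 46.6 to 58.7%; whole list 48.9%) and 61.1% after vehicle (102 of 167, 53.2 to 68.5%; whole list 54.3%, other long genes 43.9%). Under each treatment the interval includes the whole-list share. After dexamethasone the share ran from 32.0% in Magi1 (8 of 25) and 33.3% in Zfhx3 (6 of 18) to 68.8% in Nedd4l (11 of 16) and 71.4% in Prkce (20 of 28). After vehicle Prkce had 86.7% (26 of 30). GR peaks of dKO liver were also set against control NCOR1: 55.1% of dKO dexamethasone peaks overlapped a control dexamethasone NCOR1 peak (98 of 178; whole list 46.4%), and 58.0% of dKO vehicle peaks a control vehicle one (65 of 112; whole list 45.2%). Read from the other side, 66.7% of the genes' NCOR1 dexamethasone peaks overlapped GR (146 of 219, whole list 53%). Of the vehicle ones 43.1% did (103 of 239, whole list 41.3%). The genes were named for many GR peaks, which can favour a high share counted from the NCOR1 side, so these shares are a description only.

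NCOR1 was found more often at GR peaks called under both treatments. Control dexamethasone GR peaks without a vehicle GR peak overlapped NCOR1 in 36.5% of cases (54 of 148, 28.7 to 44.8%), against 41.0% over the whole list. Those with a vehicle GR peak did so in 71.3% (92 of 129, 62.7 to 78.9%), against 54.1% over the whole list. The shared peaks are also the stronger ones: at or above the list median 68.3% of the genes' peaks had NCOR1 (99 of 145; all peaks 56.4%), and below it 35.6% did (47 of 132; all peaks 41.2%). In Magi1, 4 of 20 dexamethasone-only peaks and 4 of 5 shared peaks had NCOR1.

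Between treatments the NCOR1 peaks of these genes differed about as much as the whole lists did. Of its dexamethasone peaks 31.5% had no vehicle peak (69 of 219; whole list 29.6%), and of its vehicle peaks 37.2% had no dexamethasone peak (89 of 239; whole list 32.8%). At 150 matched sites the median log2 ratio of dexamethasone over vehicle was -0.27, against -0.31 over the whole list. The dexamethasone list pooled 36.9 M tags from 2 libraries, and the vehicle list held 17.8 M from 1. Treatment and depth cannot be told apart in these values. Prkce had the lowest share, with 2 of 30 dexamethasone peaks lacking a vehicle peak. The lowest median ratio, -0.52, was found in Prkce over 28 matched sites and in Sox5 over 12. Magi1 was the gene with a median above 0, 0.22 over 6 sites.

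The NCOR1 antibody gave 91 peaks in the genes in dKO vehicle liver. Of these, 47 (51.6%) overlapped a control NCOR1 peak of either treatment, against 58.8% over the whole dKO list, and 20 of 112 dKO vehicle GR peaks overlapped one (17.9%; whole list 17.1%). Of the control vehicle NCOR1 peaks 84.1% had no dKO peak (201 of 239; whole list 79.5%). Magi1 held 11 dKO peaks, of which 3 lay at control NCOR1 peaks, and Rad51b 16, of which 6 did. Sox5 held 2. What gave the remaining dKO peaks was not tested.

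Along the gene bodies the GR sites were spread rather than gathered at the starts. In the 8 genes with a listed strand, 119 of 233 control dexamethasone peaks lay nearer to the start of the body and 114 nearer to its end, and 3 lay within 1 kb of a listed start. The listed starts leave out some body starts. Control dexamethasone sites lay 0.405 kb from the body start in Zbtb20, 0.176 kb in Magi1 and 0.098 kb in Sox5. Their nearest listed starts were 371, 370 and 835 kb away. The first 10% of the body held 14.2% of them, against 13.5% of peaks in the other long genes with a strand. Arid1b leaned to the start (20 of 30 peaks nearer to it) and Zfhx3 to the end (13 of 18 nearer to it). Nedd4l was the most gathered, with 7 of its 16 peaks within 50 kb. Sox5 had the longest stretch without a control dexamethasone peak, 202 kb, 21.2% of its body.

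**Figure D5:**
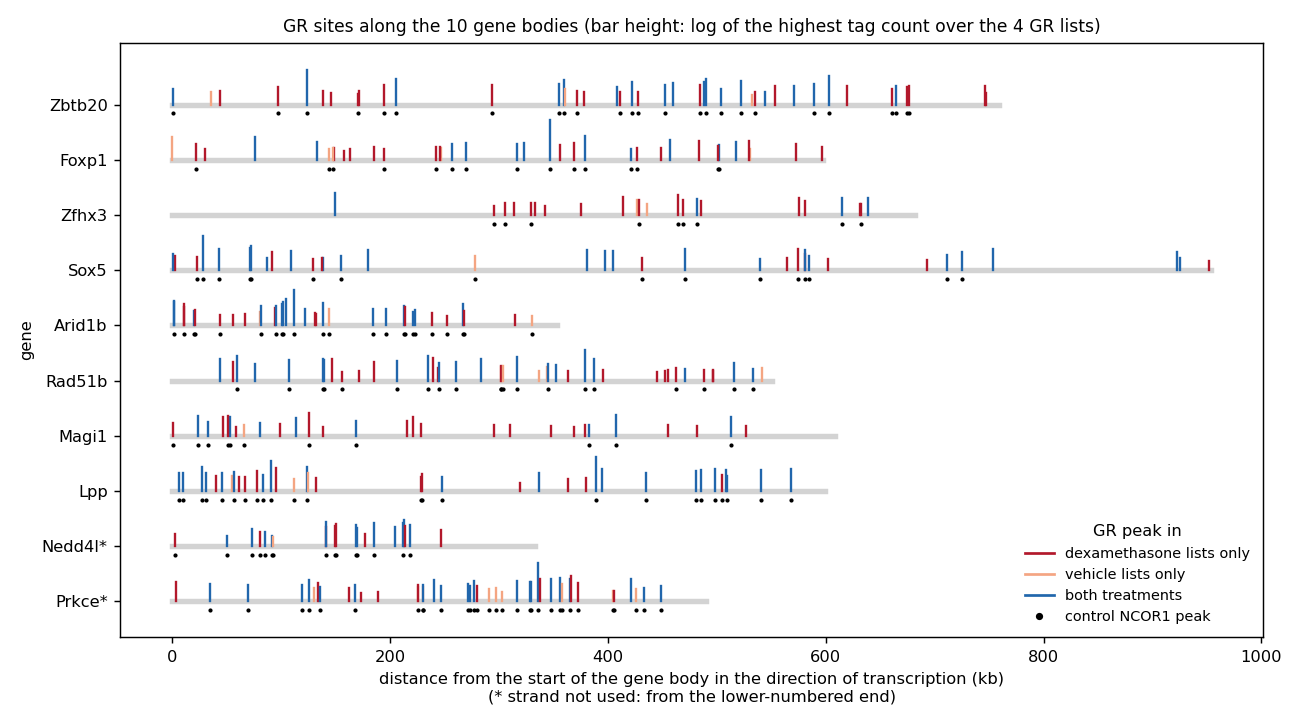
The 336 GR sites along the gene bodies, by distance from the body start in kb (for Nedd4l and Prkce, whose strand was not used, from the lower-numbered end). Bars are sites, coloured by the treatments in which a GR peak centred inside the body was called. Their height is on a log scale of the highest tag count, and dots mark control NCOR1 peaks. Sites lie along most of each body, and 13 of the 18 control dexamethasone peaks of Zfhx3 lie nearer to its end.

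Relatives of the genes and other long genes place these values. Of 32 genes from the same families, 24 held a control dexamethasone GR peak, and 59.0% of all protein-coding genes held none. The 32 genes had a median of 2.10 per 100 kb and a median length of 67.6 kb. Sox6, the SoxD relative of Sox5, held 17 peaks over 569.9 kb (2.98 per 100 kb), while Foxp2 held 5 over 540.6 kb (0.925) and Magi2 10 over 1485 kb (0.673). Wwp2, a ubiquitin ligase related to Nedd4l, held 8 (6.51 per 100 kb), and Prkca, a relative of Prkce, 9 over 410.5 kb (2.19). In 10 very long genes known mainly from neurons the density had a median of 0.413 and was highest in Ptprd, with 1.10.

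Markers of liver cell types were checked in the same list. GR peaks lay in 3 of 5 hepatocyte marker bodies (Ttr, Hnf4a and Tat) and in 3 of 3 endothelial ones, with 12 in Stab2, against 1 of 2 for stellate cells, 0 of 2 for Kupffer cells and 0 of 2 for cholangiocytes. Over all protein-coding genes 59.0% held no peak of that list. The marker bodies also differ in length, from 1.84 kb for Apoa1 to 166.8 kb for Stab2. Peaks near a gene do not measure cell numbers, and the part of other cell types in the values above was not tested.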

How the data were processed

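Peak lists for GR (4) and NCOR1 (3) were analysed, each pooling the 1 or 2 libraries of a group. The submitters' processing notes name HOMER 4.11, bedtools 2.29.2, BWA 0.7.17 and Trim Galore 0.6.4, with mm10. Per the file headers, findPeaks called peaks of 200 bp against the input, at least 4-fold over input and over the surrounding 10 kb, with a p-value of at most 0.0001 and at least 400 bp between peaks. A tag threshold of 15 was set for GR, and an FDR of 0.001 for NCOR1. Pooled depths were 27.5 to 31.9 M tags (M for 1000000) for GR and 17.5 to 36.9 M for NCOR1, per the file headers; a missing peak was not called at that depth, which does not show absence. The normalized tag count is a deposited signal per 10 M tags. It was not rescaled here for the share of tags inside peaks. The fold over input is a ratio deposited by the authors.

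The gene bodies, promoter windows and microRNA are RefSeq's on GRCm38.p6; no genome sequence was used here. Lists were matched by overlap of at least 1 bp, and 0 of 210959 calls over 6 pairs of lists differed from bedtools 2.31.1. The matching was tested on simulated data. Intervals are 95% exact Poisson or Clopper-Pearson. No p-values were computed. The members and gene lists were chosen with earlier results of these data known; for each gene the strongest sites of several classes, its relatives and the genes next in peak number were named by rule. Alternatives are in the closing section.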

Additional observations from a re-analysis of the deposited data

How the results depend on the processing

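Of 76 values recomputed for 14 results, 50 stayed within the interval of the reported value and 26 moved out of it. Any overlap with the body, bodies extended by 10 kb, centres within 500 bp and the mean of the 10 genes moved none. At 8-fold over input the density was 2.02 in dKO dexamethasone, 1.05 in dKO vehicle, 2.92 in control dexamethasone and 1.69 in control vehicle liver, with median tag counts of 13.6, 14.2, 17.8 and 15.9 in those lists. With lists of equal length, control density was 2.67 after dexamethasone and 2.16 after vehicle, and the median tag counts 19.7 and 14; fewer peaks are counted by construction. The control dexamethasone-only share was 41.0% at 8-fold, 36.6% at or above the median tag count of the list and 40.0% with equal lengths (whole list 31.9%, 24.2% and 29.5%). Control peaks without a dKO peak came to 28.3%, 20.7% and 29.3% after dexamethasone (whole list 28.6%, 21.1% and 26.6%) and 28.0%, 20.0% and 37.5% after vehicle (whole list 22.7%, 14.1% and 25.6%) in the same settings. GR peaks with NCOR1 after dexamethasone came to 45.5% with 100 bp of overlap (whole list 44.8%), 68.3% at or above the list median (whole list 56.4%), 44.4% without NCOR1 peaks found in dKO and 42.6% with the vehicle NCOR1 list; after vehicle, removing NCOR1 peaks found in dKO gave 49.1%. The cause of the moves in shares was not tested. No replicate could be left out, and depth limits which weak peaks were called. No paired analysis was possible because the lists pool replicates.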
